A study of Mus musculus with 8 samples.

Results

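In mouse bone marrow, 209 introns of 204362 listed in every library were retained in Ly6Clo monocytes and not in Ly6Chi monocytes, chosen by the retention ratio that the authors deposited. The ratio is the trimmed mean read depth over an intron divided by the sum of that depth and the larger spliced read count at its ends. An intron was taken when the ratio was at least 0.1 in the Ly6Clo library and under 0.05 in both Ly6Chi libraries. It also had to be marked clean in all 8 intron tables, to be longer than 100 and shorter than 20000 bases, and to have at least 10 spliced reads at its better covered end in those 3 libraries. In all, 77268 introns met the conditions on class, length and spliced reads. The 209 introns, also called the members, lie in 184 host genes on 21 chromosomes. A further 64959 introns met the same conditions and were also under 0.05 in both Ly6Chi libraries, but stayed under 0.1 in Ly6Clo, and these are called the comparison introns. Because the ratios in Ly6Clo and Ly6Chi chose the 209 introns, every difference between those groups is given here as a description and without a test.

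Intron retention leaves an intron in a polyadenylated transcript. A retained intron inside a coding region usually brings a premature stop codon, and such transcripts can be held in the nucleus or degraded in the cytoplasm by nonsense-mediated decay, in which Upf2 is a core factor. Retention is known as a layer of gene control in maturing myeloid cells. Ly6Chi monocytes are the classical blood monocytes recruited to inflamed tissue, and Ly6Clo monocytes are patrolling cells that arise largely from them and depend on the transcription factor Nr4a1.

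Polyadenylated RNA was sequenced as stranded read pairs of 100 bases in 8 libraries of 5 groups, all from mouse bone marrow by their source names. The groups were untreated wild-type Ly6Clo monocytes (1 library), Ly6Chi monocytes labelled as a knockout of Upf2 (2), control Ly6Chi monocytes (2), cMoP, the common monocyte progenitor (2), and MDP, the monocyte-dendritic cell progenitor (1). The control Ly6Chi and cMoP libraries carry a wild-type genotype label and a description as FL_FL, which the labels do not spell out. The labels give no age, strain or Cre driver, no number of animals per library, and nothing on whether the replicates are different animals. The p-values then reflect no more than the spread of these libraries, which may be technical. One label of cell type names a monocytic cell line, against the source names and the growth protocol, which give primary bone marrow cells.

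Ly6Clo is 1 library with no replicate, and its labelled identity was visible in its transcripts. All 10 Ly6Clo markers examined were higher in it than in both Ly6Chi libraries, among them Nr4a1 with 784.57 TPM, a level scaled to transcript length and library, in Ly6Clo against 97.26 and 192.8 in Ly6Chi, and all 8 Ly6Chi markers were lower. Markers of other cells also stood higher in Ly6Clo than in both Ly6Chi libraries. They included 15 of 15 B and plasma cell markers, with a summed level of 811 TPM against 527 and 536, and 11 of 12 macrophage markers, with 1101 TPM against 173 and 171. They also included 10 of 13 dendritic cell markers, with 541 TPM against 164 and 205, 10 of 11 eosinophil, basophil and mast cell markers, with 34.1 TPM against 13.4 and 23.7, and 11 of 16 neutrophil markers, with 5703 TPM against 2249 and 2807, 12 of 12 erythroid and platelet markers, with 333 TPM against 36.9 and 190, and 13 of 17 T and NK cell markers, with 16.8 TPM against 6.36 and 5.09. Single genes carried much of some sums in Ly6Clo, as Ighm at 699 TPM among B and plasma cell markers. Others were S100a9 at 2183 TPM among neutrophil markers and Adgre1 at 385 TPM among macrophage markers. No listed marker was at 0 TPM in Ly6Clo, though Cd3d, Cd3e, Ebf1, Klf1, Timd4, Epx, Xcr1, Siglech, Ccr7 and Marco were among those under 1 TPM. The part of such cells in the values below was not tested. Over the introns common to all tables, reads across an exon-intron boundary numbered 9.68 per 100 spliced reads in Ly6Clo, 5.20 in cMoP replicate 2 and 7.07 to 7.98 in the other 6 libraries. The transcript level of Upf2 was 20.4 and 22.4 TPM in the libraries labelled knockout against 20.1 and 18.2 TPM in control Ly6Chi, so it was not lower. Spliced reads at 1 Upf2 intron (chr2:5957851-5960932) were fewer, with 10 and 13 in the libraries labelled knockout against 41 and 45 in control Ly6Chi, although cMoP replicate 2 had 16. Of the Upf2 introns, it had the fewest spliced reads in both libraries labelled knockout. The intron before it had 14 and 38 against 50 and 55, and one nearer the 3′ end (chr2:6050480-6051508) had 149 and 148 against 93 and 75. The part of uneven coverage along transcripts in these counts was not tested.

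Sequence is shown for introns that an annotated transcript of GENCODE release M21 holds whole within an exon, which was the case for 14 of the 209. The 3 coding introns of up to 300 bases among them are printed first, to show the letters that follow the upstream exon. Letters run 5′ to 3′ on the gene's strand, and capitals mark the first stop codon in the reading frame of the upstream exon. They are intron 5 of Pts (chr9:50522337-50522528, minus strand), intron 4 of Ddx55 (chr5:124556849-124556961, plus strand) and intron 5 of Tpm1 (chr9:67032542-67032793, minus strand), on mm10.

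Pts: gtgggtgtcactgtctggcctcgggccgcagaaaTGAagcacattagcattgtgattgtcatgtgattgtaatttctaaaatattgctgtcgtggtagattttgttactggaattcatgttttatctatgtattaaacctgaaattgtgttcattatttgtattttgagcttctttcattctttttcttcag
Ddx55: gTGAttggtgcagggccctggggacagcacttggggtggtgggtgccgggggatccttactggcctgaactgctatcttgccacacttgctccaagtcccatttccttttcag
Tpm1: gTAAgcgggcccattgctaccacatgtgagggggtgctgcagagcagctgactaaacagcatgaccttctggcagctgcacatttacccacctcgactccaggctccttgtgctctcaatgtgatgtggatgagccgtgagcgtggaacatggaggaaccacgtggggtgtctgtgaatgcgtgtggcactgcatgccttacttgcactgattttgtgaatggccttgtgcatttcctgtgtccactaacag

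The stop codon began at base 35 of the intron in Pts, a gene for an enzyme of tetrahydrobiopterin synthesis. It began at base 2 both in Ddx55, which encodes an RNA helicase, and in Tpm1, a tropomyosin that stabilises actin filaments. An in-frame stop was present in 12 of the 12 coding introns with sequence, as in 1335 of 1373 comparison introns with sequence (97.2%). All 14 introns began with GT and ended with AG, and their median GC content was 39.7%, against 44.6% over 1503 comparison introns with sequence. The introns with sequence are those that an annotation already lists as retained or as part of a longer exon, and do not stand for the rest.

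Rbm25 and Chaf1b, among the introns described below, also have sequence. The intron of Rbm25, a gene of a splicing factor, spans 154 bases (chr12:83674890-83675043, plus strand) of a noncoding transcript and shares its 3′ end with a 380-base coding intron. For the longer intron 7 of Chaf1b, a subunit of chromatin assembly factor 1 (chr16:93892199-93892731, plus strand), only the ends are shown, with intron bases in capitals and exon bases in lower case.

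Rbm25, whole: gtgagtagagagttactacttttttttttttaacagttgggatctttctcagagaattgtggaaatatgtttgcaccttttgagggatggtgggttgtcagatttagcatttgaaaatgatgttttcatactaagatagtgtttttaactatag
Chaf1b, 5′ splice site: gagGTAGGA
Chaf1b, 3′ splice site: TTCAAGCTCTGTTACCACAGgca

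The retention ratio of the 209 introns in Ly6Clo ran from 0.100011 to 0.447, with a median of 0.116 and an upper quartile of 0.131. Most lay near the threshold, with 77 under 0.11, 103 from 0.11 to 0.15, 29 at 0.15 or more and 5 at 0.2 or more. Their medians in Ly6Chi were 0.0375 and 0.0338, and 104 reached at least 0.04 in the higher of those libraries, while 11 stayed under 0.02 in both. The comparison introns were lower in every library, with medians of 0.00458 in Ly6Clo against 0.00417 and 0.00428 in Ly6Chi. The members just inside the limit of 0.1 were introns of Eif4g3, Nmd3, Ppp3cb and Wdr92, at 0.100011 to 0.100495, and those just outside included introns of Jak1, Ddx42 and Dhx37, at 0.0995 to 0.0999. At the limit of 0.05, introns of Sephs1, Tstd2, Tpm1 and Phf6 were just inside, with 0.0498 to 0.0499 in the higher Ly6Chi library. Introns of Adamtsl4, Atp6v0a1, Parl and Pias2 were just outside, with 0.05 to 0.0503.

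**Figure D1:**
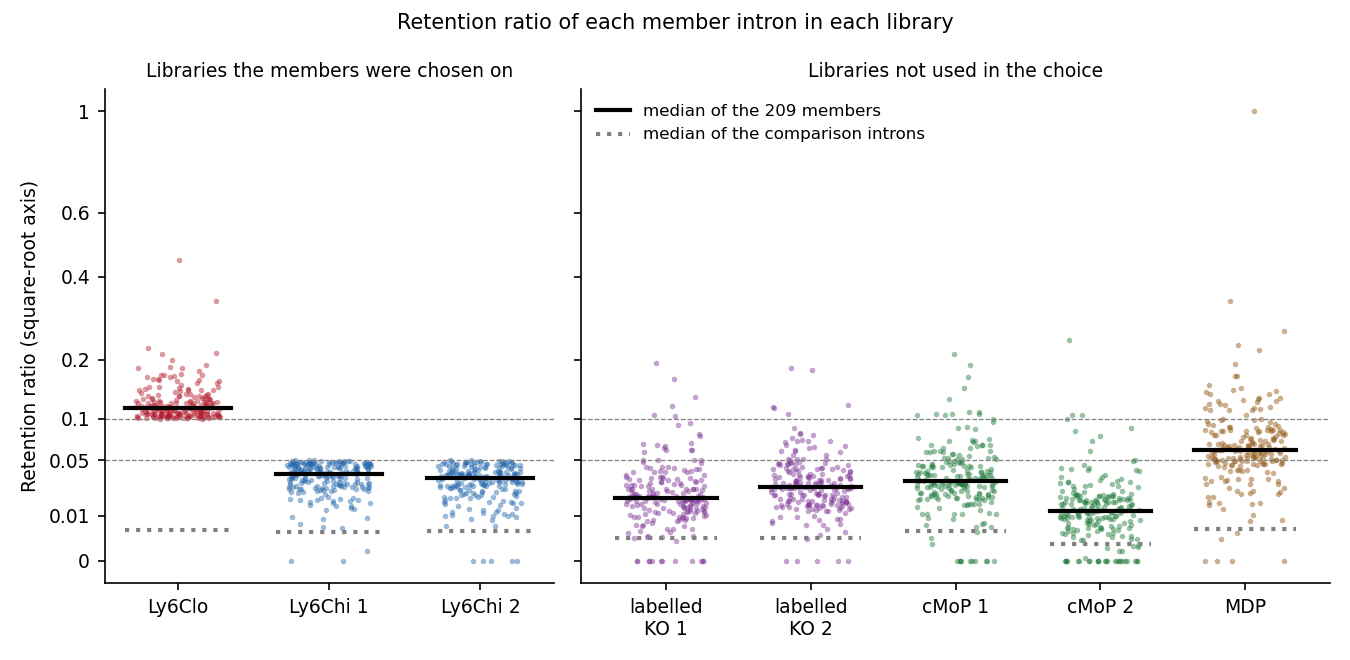
Retention ratio (square-root axis) of each of the 209 introns, 1 point per intron and library, on the left in the libraries that chose them and on the right in the other 5. Solid lines are medians of the 209 introns and dotted lines medians of the 64959 comparison introns, and dashed lines mark 0.05 and 0.1. Outside Ly6Clo the median was highest in MDP (0.0604) and lowest in cMoP replicate 2 (0.0121).

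The replicate error of this measure was read from the Ly6Chi pair. Of 66636 introns under 0.05 in Ly6Chi replicate 1, 324 reached 0.1 in Ly6Clo (0.486%, 95% Wilson interval 0.436 to 0.542%) and 77 did so in Ly6Chi replicate 2 (0.116%, 0.0925 to 0.144%). Of 67065 introns under 0.05 in Ly6Chi replicate 2, 485 reached 0.1 in Ly6Clo (0.723%) and 87 in Ly6Chi replicate 1 (0.130%). The crossing was more frequent into Ly6Clo than between replicates of Ly6Chi, and Ly6Clo also had more boundary reads per spliced read over all introns. Over introns without a warning the gap was narrower, with 0.187% into Ly6Clo (0.138 to 0.255%) against 0.0844% into Ly6Chi replicate 2 (0.0534 to 0.133%), and 0.239% into Ly6Clo (0.182 to 0.314%) against 0.0890% into Ly6Chi replicate 1 (0.0570 to 0.139%). With at least 20 spliced reads as well, 17 introns crossed into Ly6Clo against 11 into Ly6Chi replicate 2, and 22 against 4 into replicate 1, and the intervals of the first pair overlapped. In the opposite direction, of 64590 introns under 0.05 in Ly6Clo, 91 reached 0.1 in Ly6Chi replicate 1 (0.141%) and 142 in replicate 2 (0.220%), against the 324 and 485 that crossed into Ly6Clo. The 209 introns were 0.321% of the 65168 under 0.05 in both Ly6Chi libraries. Intervals here and below cover no more than counting error. Of the 209 introns, 26 carried none of the authors' warnings on uneven or low coverage, few splices or a minor isoform in any of the 3 libraries. With at least 50 spliced reads required in each of the 3 libraries, 105 introns were left, of which 5 carried no warning. With at least 20 spliced reads and no warning, 10 introns were left.

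Reads that cross the exon-intron boundary give another measure from the same libraries. Spliced reads were summed over both ends of an intron, so a read spliced from end to end entered at each end. For the 209 introns in Ly6Clo they numbered 46135 over both ends and 25698 at the larger end. The intervals of these shares are therefore too narrow even for counting error. Summed over the 209 introns, boundary reads made up 14.3% of boundary and spliced reads in Ly6Clo, against 6.50% and 5.41% in Ly6Chi. They made up 4.70% and 5.15% in the libraries labelled knockout, 5.82% and 3.07% in cMoP, and 8.76% in MDP. The share was higher in Ly6Clo than in both Ly6Chi libraries for 195 of the 209 introns, where the rate over all 77268 introns was 37.7%. For the remaining 14 introns the share did not exceed both Ly6Chi values, and the printed Ddx55 intron was one of them, with 6.29% in Ly6Clo against 6.15% and 6.40% in Ly6Chi. The 95% Wilson interval of the share in Ly6Clo lay above both Ly6Chi intervals for 58 introns, where the rate over all 77268 introns was 1.98%. These were 53 of the 112 introns with at least 50 spliced reads in Ly6Clo and 3 of the 46 with under 20. The same libraries chose the introns, so an excess over those rates was part of the choice, and the counts only describe these libraries. An intron was called one-ended when one boundary had fewer than 0.25 times the reads of the other. That held in Ly6Clo for 26 of the 209 introns (12.4%) and for 43.3% of the comparison introns. In Ly6Chi it held for 26.8% and 31.6% of the 209, against 45.9% and 45.8% of the comparison introns. A high signal in Ly6Clo was part of the choice, so the low share there is only a description.

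The introns with the most spliced reads carry the values with the smallest counting error. The deepest was intron 6 of Myo1g (chr11:6516865-6517086, 222 bases), a class I myosin of blood cells. Its boundary share was 11.9% in Ly6Clo (95% Wilson interval 11.1 to 12.7%) against 6.64% and 6.76% in Ly6Chi, and its retention ratio was 0.107 in Ly6Clo against 0.0474 and 0.0492 in Ly6Chi. The ratio was 0.0340 and 0.0476 in the libraries labelled knockout, 0.0401 and 0.0121 in cMoP and 0.0836 in MDP. Ly6Clo stood above all other libraries, MDP second, and no other library above the higher Ly6Chi value. Myo1g itself was at 859 TPM in Ly6Clo against 446 and 428 TPM in Ly6Chi.

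The last intron of Fos (chr12:85475700-85475816, 117 bases), an immediate early transcription factor, behaved differently across the libraries. Its ratio was 0.118 in Ly6Clo against 0.0475 and 0.0157 in Ly6Chi, with 0.0463 and 0.0839 in cMoP and 0.192 in MDP, and the libraries labelled knockout were at 0.0309 and 0.0342. The boundary share was 12.3% in Ly6Clo (11.3 to 13.3%), 5.08% and 2.32% in Ly6Chi and 18.5% in MDP (16.6 to 20.6%). MDP therefore stood above Ly6Clo for this intron, and the Ly6Chi replicates themselves differed, at 5.08% and 2.32%. Fos was at 491 TPM in Ly6Clo against 1103 and 1818 TPM in Ly6Chi, and at 626 and 129 TPM in cMoP and 154 TPM in MDP. The libraries with the lower Fos level were, apart from cMoP replicate 1, those with the higher ratio.

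Intron 2 of Map2k1 (chr9:64212731-64214398, 1668 bases), the gene of the kinase MEK1, was the deep intron with the widest gap. Its ratio was 0.126 in Ly6Clo against 0.0266 and 0.0195 in Ly6Chi, and none of the other 5 libraries exceeded 0.0247. Left and right boundary reads numbered 178 and 125 in Ly6Clo, 38 and 16 in Ly6Chi replicate 1, and 45 and 12 in replicate 2, so both ends were read more often in Ly6Clo. The boundary share was 15.98% in Ly6Clo (14.4 to 17.7%), 3.87% and 3.52% in Ly6Chi and 4.92% in MDP. For Map2k1 the value in MDP was close to those in Ly6Chi. Its transcript level was 171 TPM in Ly6Clo against 118 and 123 TPM in Ly6Chi.

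The last intron of Tpd52 (chr3:8931175-8934991), a gene of vesicle traffic, had a boundary share of 9.62% in Ly6Clo against 4.34% and 3.63% in Ly6Chi, and of 8.70% in MDP. In Eif4g3 (chr4:138178011-138180489), a scaffold of translation initiation, the share was 11.7% in Ly6Clo against 4.42% and 3.81% in Ly6Chi, and 8.75% in MDP. Both genes resembled Myo1g in that MDP came second. Lta4h, the enzyme that makes leukotriene B4, held 2 member introns, and its last intron (chr10:93483067-93484662) had a share of 14.7% in Ly6Clo against 5.86% and 6.40% in Ly6Chi, with 5.89% in MDP. Here MDP was within the range of Ly6Chi. The intron of Pts printed above had a share of 12.8% in Ly6Clo against 5.03% and 6.64% in Ly6Chi.

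**Figure D2:**
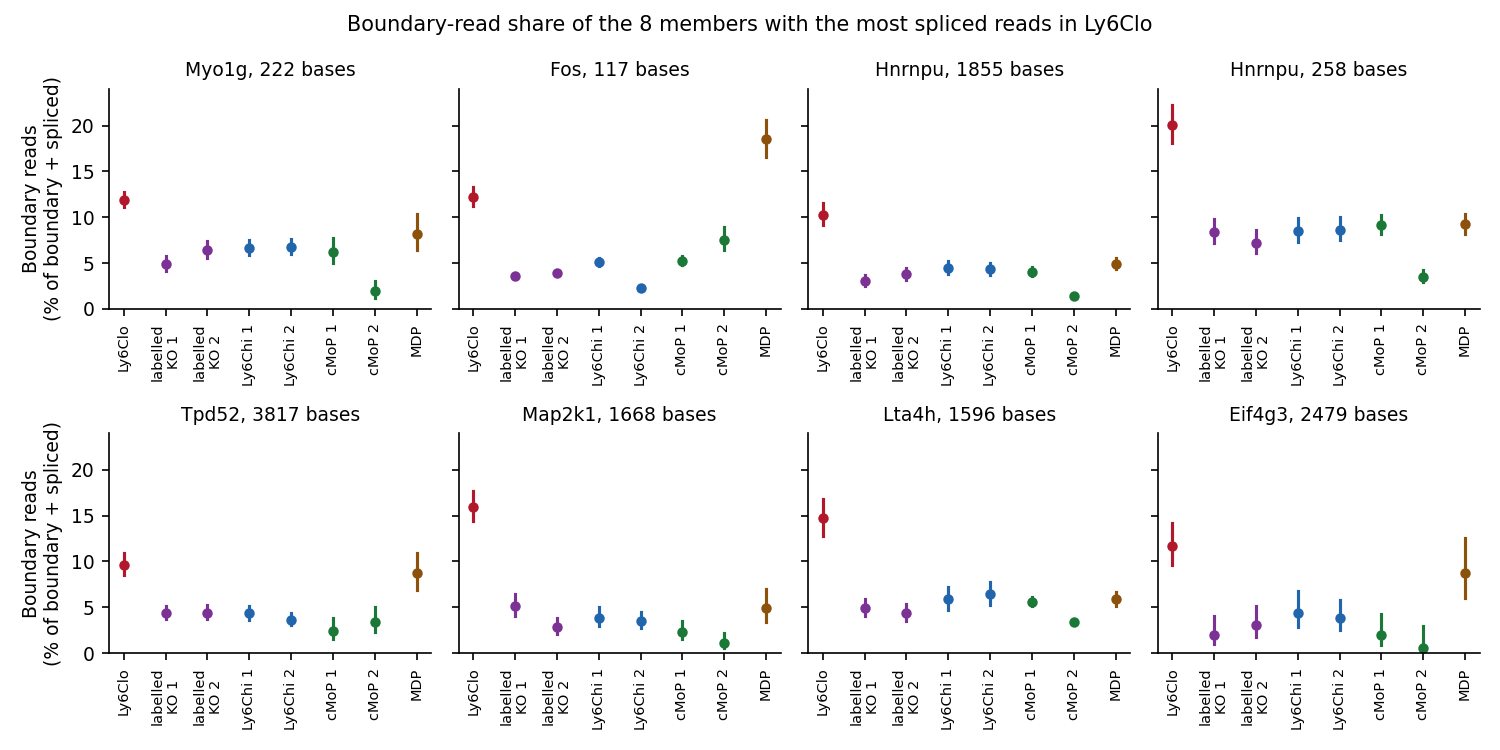
Boundary reads as a percentage of boundary and spliced reads in each library for the 8 member introns with the most spliced reads in Ly6Clo. Points are single libraries, bars are 95% Wilson intervals with spliced reads counted at both ends, and colours mark groups. In 7 of the 8 panels Ly6Clo is the highest library, and in that of Fos MDP is higher (18.5% against 12.3%).

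The highest ratios came from introns with few reads. Intron 1 of Xkr8 (chr4:132731073-132732172), a phospholipid scramblase of apoptotic cells, was at 0.447 in Ly6Clo against 0.0463 and 0.0309 in Ly6Chi, on 12 spliced reads in Ly6Clo and 10 in each Ly6Chi library. Usp28, a deubiquitinase, was at 0.333 against 0.0270 and 0.0335 on 10 spliced reads in Ly6Clo, and its intron 19 (chr9:49035772-49035881) also reached 0.104 and 0.118 in the libraries labelled knockout. The Chaf1b intron whose ends are printed above was at 0.225 in Ly6Clo against 0.0265 and 0.0231 in Ly6Chi, on 18 spliced reads in Ly6Clo against 83 and 65. Its boundary interval of 10.9 to 33.8% in Ly6Clo lay above those of Ly6Chi. Tbc1d32 (0.214), Klhdc1 (0.212), Mecr (0.191) and Pde8b (0.186) followed, with 11, 19, 41 and 17 spliced reads in Ly6Clo. Of the 8 highest, intron 3 of Bicd2 (chr13:49375370-49377889), a dynein adaptor, had the most spliced reads, 95 in Ly6Clo. Its ratio was 0.199 in Ly6Clo against 0.0357 and 0.0403 in Ly6Chi and 0.0509 in MDP, and its boundary share 24.7% (19.6 to 30.6%) against 7.46% and 10.96%.

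By function, the hosts were spread widely. Of the hnRNP and RBM proteins, which bind pre-mRNA and shape splicing, 3 of 34 genes with an intron that met the filters were hosts (Hnrnpu, Rbm25 and Rbm6, with 5 introns), where 184 of all 8229 gene symbols (2.24%) were. Of the factors of nonsense-mediated decay 1 of 21 was a host, Upf3b, which links exon junction complexes to the decay machinery. The others were 1 of 34 interferon response genes (Eif2ak2, the kinase PKR), 2 of 69 chromatin enzymes (the methyltransferase genes Kmt5a and Setd5) and 2 of 49 genes of DNA repair and p53 (Atr, a DNA damage kinase, and Ercc5, an excision repair nuclease). No host was found among 40 SR proteins and other splicing regulators, 52 core spliceosome genes, 39 genes of RNA export, decay and intron turnover, 49 lysosome and phagocytosis genes, 18 antigen presentation genes or 41 kinases of Src, Syk and Toll-like receptor signalling. None was found either among 23 genes high in Ly6Clo or 21 genes high in Ly6Chi monocytes, or among the marker lists of other cells, of which between 0 and 14 genes a list had such an intron. These are counts without a test.

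Hnrnpu, a nuclear scaffold and splicing factor, held 2 introns with a common end. The 258-base one (chr1:178334027-178334284) had a boundary share of 20.1% in Ly6Clo (18.1 to 22.3%) against 8.53% and 8.66% in Ly6Chi, and 9.24% in MDP. The short Rbm25 intron printed above was similar, with 24.8% in Ly6Clo (20.9 to 29.1%) against 7.75% and 7.12% in Ly6Chi, and 10.4% in MDP. In both genes Ly6Clo stood apart from every other library. Rbm6 (chr9:107787399-107787778) had a retention ratio of 0.120 in Ly6Clo against 0.0451 and 0.0280 in Ly6Chi. The transcript level of Hnrnpu was 324 TPM in Ly6Clo against 357 and 330 TPM in Ly6Chi, that of Rbm25 117 TPM against 104 and 82.7 TPM.

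Upf3b had 2 member introns that share no end. The 402-base intron 4 (chrX:37099105-37099506) was at a ratio of 0.129 in Ly6Clo against 0.0238 and 0.0239 in Ly6Chi, with 0.0262 and 0.00356 in cMoP and 0.0815 in MDP. The other (chrX:37104528-37108914) was at 0.117 in Ly6Clo against 0.0471 and 0.0283 in Ly6Chi, with 0.0191 and 0.00377 in cMoP and 0.0574 in MDP. Both followed the order of Ly6Clo, MDP and then the rest, on 65 and 37 spliced reads in Ly6Clo. Intron 14 of Eif2ak2 (chr17:78855400-78856566) was at 0.129 in Ly6Clo against 0.0448 and 0.0383 in Ly6Chi and passed 0.1 in MDP too, at 0.113. Intron 25 of Atr was at 0.124 in Ly6Clo against 0.0128 and 0.0126 in Ly6Chi, and at 0.0820 in MDP. Ercc5 was at 0.137 against 0.0288 and 0.0429, Kmt5a at 0.124 against 0.0472 and 0.0389, and Setd5 at 0.111 against 0.0492 and 0.0466. In Ercc5, Kmt5a and Setd5, MDP was at 0.0314 to 0.0599, under every Ly6Clo value.

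Some member introns were neighbours or variants of one another, and no such share over all introns is given beside the counts. Of the host genes, 160 held 1 member. In 24 genes at least 2 introns were members, and 29 of the 209 shared an end, and thus spliced reads, with another. Ift46, a component of intraflagellar transport, had 3, all in the 5′ untranslated region and at 0.102, 0.108 and 0.1104 in Ly6Clo, which share ends and are not independent observations. The first and second introns of Ccdc58, a mitochondrial protein gene, do not overlap and were at 0.104 and 0.108 in Ly6Clo. They were at 0.00860 and 0.00809 (first) and at 0.0382 and 0.0204 (second) in Ly6Chi. Their boundary shares, 3.85% and 10.8% in Ly6Clo, rested on 2 and 12 boundary reads. Cacna1f, a calcium channel subunit, also had 2 members, with 13 and 24 spliced reads in Ly6Clo, and its whole gene was at 0.47 TPM there. Cdc14b and Arhgef10 also had 2 each, and 1 of the Arhgef10 introns had no boundary read in Ly6Clo at all.

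The 209 introns differed from the comparison introns in where they lie. They were the last intron of their transcript in 42 of 203 cases with more than 1 intron (20.7%, comparison 7.59%). Their transcripts had fewer introns, with a median of 10 against 15, and the part of this in the share of last introns was not tested. The comparison introns were also lower in Ly6Chi, so the sets differ in more than Ly6Clo. An annotated transcript end lay inside 47 of them (22.5%, comparison 9.97%), and an annotated exon covered a part of 84 (40.2%, comparison 23.6%). Of the 209, 170 interrupted coding sequence (81.3%, comparison 90.6%), 17 lay in a 5′ untranslated region (8.13%, comparison 4.98%), 5 in a 3′ untranslated region (2.39%, comparison 0.379%) and 17 in noncoding transcripts (8.13%, comparison 4.01%). Their median length was 1345 bases, against 1632 bases, and 40 were of up to 300 bases (19.1%, comparison 10.7%). They were also less deeply read, with a median of 56 spliced reads in Ly6Clo against 122, and 46 had 10 to 19 (22.01%, comparison 5.19%). Where a transcript can end inside an intron, coverage from that shorter transcript enters the ratio, and the part of this in the difference between Ly6Clo and Ly6Chi was not tested. Members in 3′ untranslated regions included the last intron of Id2, an inhibitor of helix-loop-helix factors, at 0.109 in Ly6Clo against 0.0449 and 0.0469 in Ly6Chi, and that of Phf6, a chromatin protein, at 0.145 against 0.0498 and 0.0226.

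**Figure D3:**
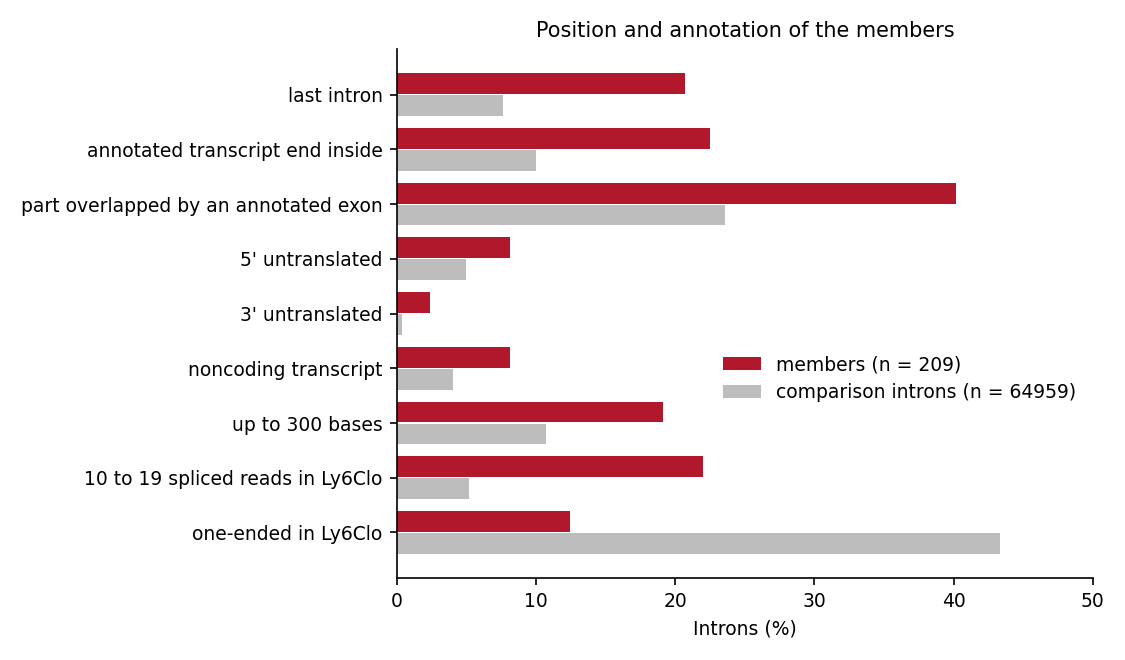
Percentage of the 209 introns (red) and of the 64959 comparison introns (grey) with each feature, counted in GENCODE M21 or, for the last 2 features, in the Ly6Clo table. Last introns (20.7% against 7.59%) and introns with an annotated transcript end inside (22.5% against 9.97%) were more frequent among the 209, and one-ended introns (12.4% against 43.3%) less so. The last 2 features depend on reads in Ly6Clo, which took part in the choice.

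In 173 of the 184 host genes, 2074 further introns met the filters. Of these, 9.06% had a ratio of at least 0.1 in Ly6Clo against 5.83% and 5.26% in Ly6Chi, and among 74985 introns of other genes the shares were 7.35% in Ly6Clo against 5.75% and 5.33% in Ly6Chi. Among 154 host genes with at least 3 such introns, the median ratio over them was higher in Ly6Clo than in both Ly6Chi libraries in 100 (64.9%), where it was in 50.3% of 6675 genes that hold no member. The median difference between Ly6Clo and the Ly6Chi mean was 0.00316 in host genes and 0.000683 in the other genes. The further introns are all others of these genes that met the filters, also any that overlap a member or share an end with it. Reads of a member can thus enter their values, and the part of this in the excess was not tested. These neighbours were also read in the libraries that chose the members, so the comparison is a description.

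**Figure D4:**
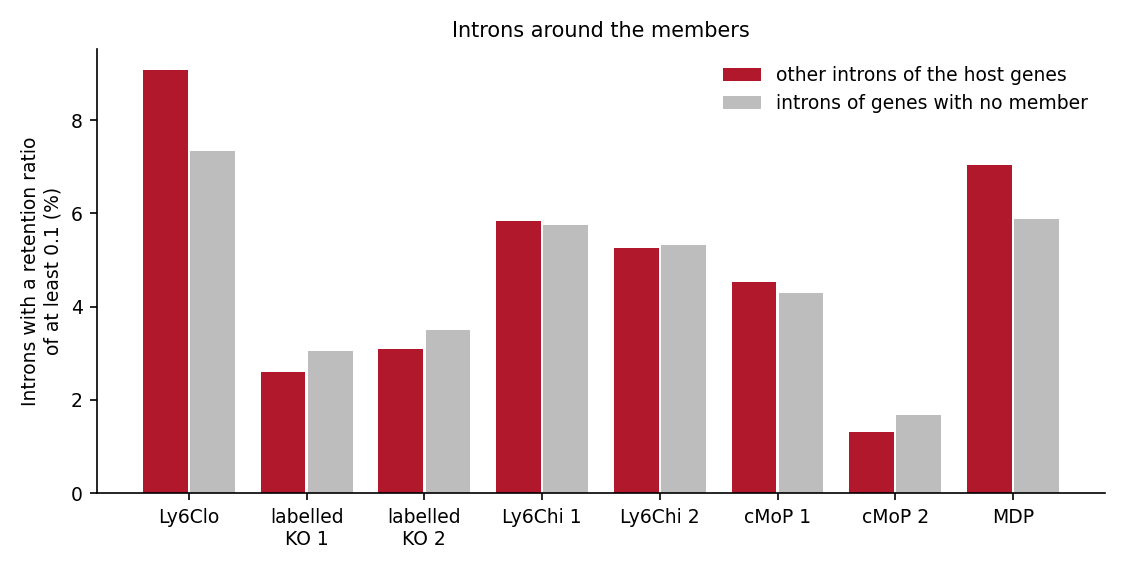
Percentage of introns with a retention ratio of at least 0.1 in each library, for the 2074 further introns of the host genes (red) and the 74985 introns of genes with no member (grey). The red bar stands highest in Ly6Clo (9.06%), followed by MDP (7.04%), and is lowest in cMoP replicate 2 (1.30%).

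The 5 libraries that did not choose the introns show whether the same introns were retained elsewhere. A ratio of at least 0.1 was reached by 33 of the 209 in MDP (15.8%), where 5.94% of all introns that met the filters and 0.212% of the comparison introns reached it. In cMoP it was reached by 12 and 3 (all introns 4.3% and 1.67%), and in the libraries labelled knockout by 6 and 6 (all introns 3.03% and 3.49%). Of the 33 in MDP, 23 had at least 10 spliced reads there, and the highest of those was 2010315B03Rik at 0.230. The value of 1 for Adamtsl4 in MDP rested on no spliced read. A ratio of at least 0.05 was reached by 141 in MDP (67.5%, comparison 2.86%), by 47 and 10 in cMoP and by 23 and 30 in the libraries labelled knockout. Median ratios of the 209 were 0.0195 and 0.0267 in the libraries labelled knockout, 0.0313 and 0.0121 in cMoP, and 0.0604 in MDP. The comparison introns had medians of 0.00254 and 0.00256 in the libraries labelled knockout, 0.00452 and 0.00138 in cMoP, and 0.00488 in MDP. As the 209 introns were already higher than the comparison introns in Ly6Chi, a higher level in other libraries was part of the choice.

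At single introns the MDP level varied. An intron of Atrx, a chromatin remodeller (chrX:105851271-105851964), was at 0.153 in Ly6Clo, 0.0132 and 0.0382 in Ly6Chi and 0.131 in MDP, though its boundary share hardly differed, at 18.9% in Ly6Clo against 13.5% and 17.9% in Ly6Chi.

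At the other extreme, 4 introns had a mean ratio under 0.01 over the 5 libraries outside the choice, those of Ip6k3, Lrrc40, 5730455P16Rik and Tubd1. The Lrrc40 intron (chr3:158054669-158054785) was at 0.116 in Ly6Clo, at 0.000512 and 0 in Ly6Chi and at no more than 0.00696 elsewhere, with 11 boundary reads in Ly6Clo against 1 and 0. Ip6k3, an inositol hexakisphosphate kinase, had no spliced read at this intron in cMoP or MDP, so its zeros there say nothing on retention. The highest means outside were those of Adamtsl4, Klhdc1, Ecm1, Zfp383, Ccdc15, 2010315B03Rik, Pde8b and Tbc1d32. Of these, 2010315B03Rik alone had at least 100 spliced reads in Ly6Clo (101), at a ratio of 0.164 against 0.0232 and 0.0269 in Ly6Chi, and it was also at 0.147 and 0.0418 in cMoP.

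Boundary reads relative to spliced reads were tested between cMoP and MDP, neither of which chose the introns. The ratio in MDP was above that of both cMoP libraries in 177 of the 209, where it was in 52.7% of all introns that met the filters. edgeR's quasi-likelihood test over 48132 introns covered 133 of the 209 and called none of them, nor any other intron, in either direction (0% each), at a lowest adjusted p of 0.597 among the 133. At an unadjusted p under 0.05 there were 43 of the 133 and 4020 of all introns, and DESeq2 also called none, with 19 and 1709 at an unadjusted p under 0.05. The fitted change was lower in cMoP for 121 of the 133, with a median log2 change of -1.12, against -0.39 over all introns tested. That median was -1.52 without cMoP replicate 1 (all introns -0.84) and -0.60 without replicate 2 (all introns -0.11). The lowest unadjusted values were those of Eif4g3, with a log2 change of -2.65 ± 0.69 (SE), Fos with -1.77 ± 0.47 and Tpd52 with -1.67 ± 0.44. This count rested on the cMoP pair, whose libraries differed. Without replicate 1, 54 of 131 members tested passed, all lower in cMoP, beside 5014 of all introns, and without replicate 2 none did. cMoP replicate 2 also had the strongest lean of spliced reads to the 3′ end of transcripts, with a median log2 ratio of 3′ to 5′ introns of 0.74, against 0.48 in cMoP replicate 1 and 0.27 in MDP. It was 0.27 in Ly6Clo, 0.24 and 0.30 in Ly6Chi, and 0.70 and 0.48 in the libraries labelled knockout. Over the 209 introns, the libraries with the larger lean (0.48 to 0.74) had the lower median ratios, but Ly6Clo and Ly6Chi chose these introns. Over all introns that met the filters, the median in cMoP replicate 1 was 0.00658, between the Ly6Chi values of 0.00643 and 0.00660. The other libraries with a larger lean were lower, at 0.00385 and 0.00395 in those labelled knockout and 0.00213 in cMoP replicate 2. The part of the lean in these values was not tested.

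The libraries labelled knockout were tested against cMoP in the same fit. They are Ly6Chi monocytes and cMoP are progenitors with a wild-type label, so cell stage and the Upf2 label cannot be told apart. Of the 133 members tested none passed, at a lowest adjusted p of 1, where 0.0125% of all introns were higher and 0.00623% lower. At an unadjusted p under 0.05 there were 9 of the 133, 8 of them higher in the libraries labelled knockout, and DESeq2 gave none called and 4 at that level. The median log2 change was 0.22 over the 133 and 0.06 over all introns, but its direction depended on the cMoP library. It was 0.72 without cMoP replicate 1 (all introns 0.50) and -0.26 without replicate 2 (all introns -0.20). Both libraries labelled knockout had a higher ratio than both cMoP libraries in 37 of the 209 (all introns 10.9%). Whether members passed, and in which direction, depended on the cMoP library left out, and each such fit rests on 1 cMoP library. Against control Ly6Chi, which chose the introns, both libraries labelled knockout had a lower ratio in 104 of the 209, where 47.9% of all introns did.

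Transcript levels of the host genes were set beside retention, 183 of the 184 having at least 1 TPM in at least 2 libraries. Folds here are ratios of (TPM + 1). At least 2-fold higher in Ly6Clo than in the Ly6Chi mean were 6 hosts (3.28%), against 7.99% of all 13126 genes. At least 2-fold lower were 15 hosts (8.20%), against 7.53% of all genes. Of 8200 genes with an intron that met the filters, 6.17% were higher and 7.06% lower. The median host ratio was 0.988, against 1.02 over all genes. The number of higher hosts changed with the Ly6Chi library left out, as given below, and no count over all genes was made for that. The 6 higher hosts included Ip6k3, Phtf2, Klc2, Lrrfip1 and Klhdc1, with Ip6k3 at 24.8 TPM in Ly6Clo against 3.77 and 4.24 TPM in Ly6Chi, the largest ratio at 5.16. Of the 6 lowest hosts, Kif15, a spindle kinesin, was at 1.94 TPM in Ly6Clo against 35.8 and 29.6 TPM in Ly6Chi. Ndc80, of the kinetochore, was at 5.24 TPM against 37.0 and 33.6 TPM, and Ncapg2, of condensin II, at 2.62 TPM against 21.8 and 18.2 TPM. Kif23, a kinesin of cytokinesis, Mybl2, a transcription factor of the cell cycle, and Timeless, of the replication fork, were at 9.83, 3.37 and 4.07 TPM in Ly6Clo, where the lowest value in Ly6Chi was 53.01, 18.9 and 20.7 TPM. In bulk samples, fewer cells with a transcript and less of it per cell cannot be told apart. Few reads lie behind the introns of these genes in Ly6Clo, with 14 to 25 spliced reads for 5 of them and 53 for Kif23. For Kif15 the intron had 16 spliced reads and no boundary read in Ly6Clo, against 226 and 208 spliced reads in Ly6Chi.

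**Figure D5:**
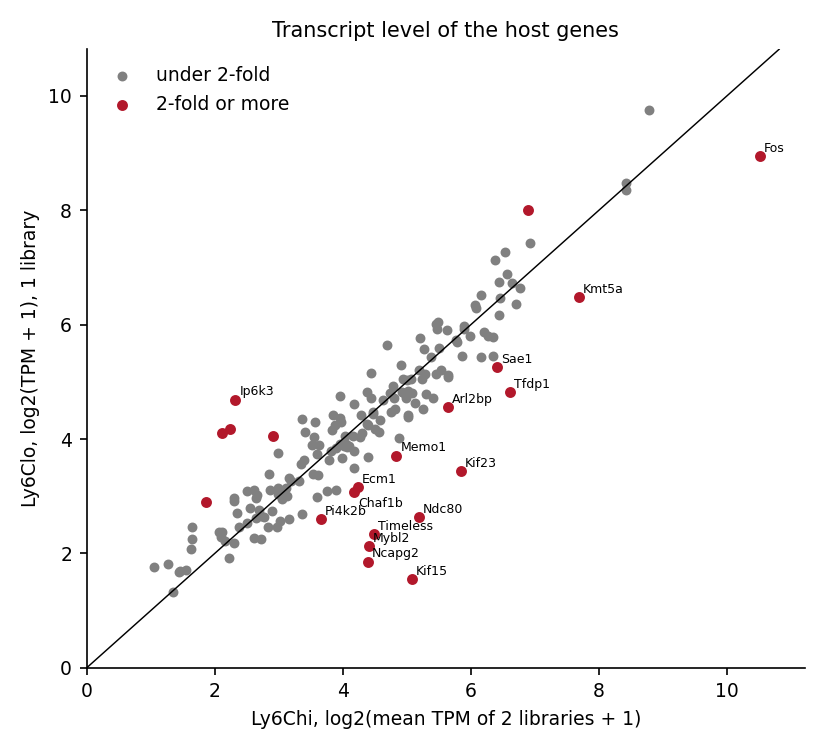
Transcript level of the 183 host genes in Ly6Clo (1 library, vertical axis) and Ly6Chi (mean of 2 libraries, horizontal axis), both as log2(TPM + 1). Red points are the 6 genes at least 2-fold higher and the 15 at least 2-fold lower in Ly6Clo, and the line marks equal levels. Names are given for the lower genes and for Ip6k3. Most hosts lie near the line.

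Between cMoP and MDP, limma on log2(TPM + 1) called 1 host higher in cMoP (1.35% of all genes) and 3 lower (2.52% of all genes), with p-values adjusted over 13126 genes. The median gene was itself 0.28 lower on this scale in cMoP, and with each library centred on its median gene 408 genes were higher and 295 lower, in place of 177 and 331. Lta4h was at 450 and 412 TPM in cMoP against 245 TPM in MDP, a log2 change of 0.81 ± 0.13 (SE, limma adjusted p = 0.034). Id2 was at 3.08 and 1.39 TPM in cMoP against 17.8 TPM in MDP, a change of -2.59 ± 0.33 (limma adjusted p = 0.020). Phf6 was at 14.7 and 12.5 TPM in cMoP against 34.7 TPM in MDP, a change of -1.30 ± 0.24 (limma adjusted p = 0.049), and Tpd52 at 69.6 and 61.6 TPM against 118 TPM, a change of -0.84 ± 0.14 (limma adjusted p = 0.038). The call of Tpd52 was lost with that centring, at -0.45 (limma adjusted p = 0.194), and that of Phf6 with a pseudocount of 0.1 (limma adjusted p = 0.067) and without cMoP replicate 2 (limma adjusted p = 0.069). Leaving out any 1 library of control Ly6Chi or of those labelled knockout, which only set the spread, left no host called. The number of hosts called also changed with cMoP replicate 1 left out, and ranges for hosts and all genes are given below. In the libraries labelled knockout against control Ly6Chi, limma called no host in either direction, where 0% of all genes were higher and 0.00762% lower, 33 hosts and 1910 genes being under an unadjusted p of 0.05. The median log2 change was -0.22 over the hosts and -0.12 over all genes.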

How the data were processed

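Per the submitters' processing notes, the authors' tools included RSEM, STAR 2.5.2a, Trimmomatic and FastQC, and the builds named are mm10 and a human one. The step that made the intron tables is not given in the sources used here. Each deposited intron table holds whole-number counts of boundary and spliced reads, a deposited signal (the trimmed mean coverage of an intron, with no scaling for depth) and a deposited fraction, the retention ratio. The expression table deposited by the authors is named for FPKM but every column has the one fixed total that defines TPM, so its values were used as TPM, and no counts behind them were used. RNA had an integrity number over 7, per the labels' protocols.

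Depth per library, summed over introns common to all tables (a read can count for overlapping introns), was 34094665 to 43771693 spliced reads at the larger end and 2275931 to 3311504 boundary reads.

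Introns were matched to GENCODE M21 by coordinates (77241 of 77268, all 209 members), and sequence was read from GENCODE transcripts, since no genome sequence was used. Retention was tested with edgeR 4.0.16 (glmQLFit and glmQLFTest, R 4.3.3) on boundary reads (left plus right) relative to the larger spliced count, with a library effect, all 8 libraries, 3 residual degrees of freedom, and at least 20 boundary plus spliced reads in every library. DESeq2 1.42.0 was an alternative. Expression was tested with limma 3.58.1 on log2(TPM + 1), over genes of at least 1 TPM in at least 2 libraries. Benjamini-Hochberg adjustment was used with a threshold of 0.05. Both tests were checked on simulated data with changes placed in the libraries labelled knockout, which did not cover cMoP against MDP. The single libraries of Ly6Clo and MDP were taken to vary as the replicated groups do.

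The 209 introns, the gene lists, and the rules for naming introns were chosen with earlier results of these data known. Named were the 8 introns with the highest ratio and the 8 with the most spliced reads in Ly6Clo, hosts in a gene list (up to 4 a list), 5 genes with several members (Ift46 with 3, then the first in alphabetical order of 23 tied at 2), the extremes outside the choice, those next to a threshold, and the 6 hosts with the largest change per direction. The introns of Pts, Ddx55 and Atrx and the sequences shown were chosen after their values were seen. A few introns and genes that these rules name are not reported here.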

Additional observations from a re-analysis of the deposited data

How the results depend on the processing

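The fold changes of the 4 named host calls kept their direction under every alternative run. The median change in the libraries labelled knockout against cMoP did not, being 0.22 over the members and -0.26 without cMoP replicate 2. The median host change in cMoP against MDP was -0.33, and 0.05 with each library centred on its median gene. For retention in cMoP against MDP, the member count of 0 became 1 with no minimum count and ranged from 0 to 54 when 1 library was left out (54 without cMoP replicate 1). Over all introns the count of 0 became 9 with TMM scaling of boundary and spliced counts apart (which moved the median log2 change from -0.39 to -0.01, and that of the members to -0.73), 38 with no minimum count, 6 with only the compared groups and 0 to 5014 with 1 library left out. For the libraries labelled knockout against cMoP, the member count of 0 ranged from 0 to 5 with 1 library left out. The count of 9 over all introns became 119 with TMM, 16 with DESeq2, 126 with no minimum count, 0 with only the compared groups and 0 to 1079 with 1 library left out. For expression in cMoP against MDP, the host count of 4 ranged from 0 to 65 with 1 library left out, and the count of 508 over all genes became 300 with a pseudocount of 0.1 (157 higher, 143 lower), 2348 with no filter and 106 to 4917 with 1 library left out. Centring gave 3 hosts higher and 2 lower. The 1 gene called in the libraries labelled knockout against control Ly6Chi became 0 with the pseudocount of 0.1 and 0 with any library left out. The hosts at least 2-fold higher in Ly6Clo numbered 5 to 13 with 1 Ly6Chi library left out.

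The share of the 209 introns at 0.1 or more was 2.87% in replicate 1 of the libraries labelled knockout, and 0% with at least 20 or 50 spliced reads and 16.3% with the boundary share in place of the ratio. In replicate 2 it was 2.87%, and 0.654% and 0% with those minimums, 19.1% with the boundary share and 7.69% over introns without a warning. In cMoP replicate 1 it was 5.74%, and 2.86% with at least 50 spliced reads and 20.1% with the boundary share. In cMoP replicate 2 it was 1.44%, and 0% and 12.9% under the same alternatives. In MDP it was 15.8%, and 36.4% with the boundary share and 7.69% without a warning. The crossing between Ly6Chi replicates, 0.116% and 0.130%, fell to 0.0831% and 0.0615% with at least 20 spliced reads, 0.0364% and 0.0241% with at least 50, and 0.0844% and 0.0890% without a warning. The cause of these changes was not tested.

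The replicate numbers do not pair the libraries by the labels. Same-numbered libraries correlated in their deviations from the group means at -0.061, -0.043 and -0.014 for retention and at -0.136, -0.130 and 0.063 for expression. With the replicate block, retention in the libraries labelled knockout against cMoP gave 8 introns and 0 members, and expression against control Ly6Chi gave 0 genes. A crossed replicate block, added after seeing the data, also gave 0 genes in expression. Low spliced counts limit single introns, as 46 of the 209 had 10 to 19 in Ly6Clo.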
